A study of Capsicum chinense with 22 samples.

Results

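The pericarp of *Capsicum chinense* accession A18 was compared between green fruits at 20 days after anthesis (DAA) and ripe fruits at 60 DAA. A18 is a native accession with yellow, non-pungent ripe fruits. Its members were every library whose labels gave the genotype A18, 5 of 22 libraries in all, with 2 libraries at 20 DAA and 3 at 60 DAA. The other 17 libraries came from Habanero (Hab, red and pungent), A101 (yellow and pungent) and Biquinho (Biq, red and non-pungent), with 3 libraries in each group except Hab at 60 DAA, which had 2. All plants came from selfed seed and grew in a greenhouse with no treatment, so stage and accession were what set the groups apart. Each library held pericarp from at least 3 fruits of 1 plant, and plants of A18 are members of 1 seed-bank accession.

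Pepper fruits are non-climacteric, that is, they ripen without the burst of respiration and ethylene of a tomato. During ripening the chloroplasts of the pericarp turn into chromoplasts, chlorophyll is broken down and carotenoids build up. Starch made in the green fruit is degraded, sucrose is cleaved into hexoses, the middle lamella and the hemicelluloses of the wall are loosened, and cell division and expansion have ended. The comparison asked which of these processes changed at the transcript level in A18, and where A18 changed otherwise than Hab, A101 and Biq.

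The deposited values were variance-stabilised (VST) read counts, which are close to log2 units, centred so that each gene has a mean of 0 over the 22 libraries. A value is therefore a level relative to that gene alone, levels cannot be compared between genes, and the depth of the libraries was not used here. A difference of 1 is close to a doubling for a well expressed gene, and less than the true change for a gene with few reads. Below, a gene rose or fell when limma, fitted to all 22 libraries, gave an adjusted p under 0.05 and a difference of at least 1. The 5 A18 libraries are named by stage and by a letter that only gives the order of their columns.

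In A18, 1922 of 16922 genes rose (11.4% of all genes) and 3485 fell (20.6%), 5407 genes in all (32.0%). At 4 or more there were 335 falls and 141 rises, and at 8 or more 14 falls and 9 rises. Quantile normalization of the libraries gave 2882 rises and 3120 falls, so that the share of falls among the called genes went from 64.5% to 52%. It shifted the A18 difference of each gene, and the median of these shifts was 0.18. The 2 stages were 193 to 197.2 units of Euclidean distance apart over all genes, against 44.9 between the 20 DAA libraries and 30.8 to 44.3 among the 60 DAA libraries. The libraries of the 2 stages did not overlap at 12456 genes, 73.6% of those tested, with the ripe ones higher at 33.7% and lower at 39.9%.

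The largest rise in the table was that of the capsanthin/capsorubin synthase gene *CCS* (LOC107875664), whose enzyme makes the red ketocarotenoids of pepper chromoplasts. Its values were -6.40 and -6.32 at 20 DAA and 4.95, 4.90 and 5.03 at 60 DAA. *CCS* was thus low in both green libraries and high in all 3 ripe ones, with no overlap. Ripe A18 fruits are yellow. The difference was 11.32 (SE 0.36, adjusted p = 3.05e-15). *Defensin J1-1* (LOC107838797), an antimicrobial peptide gene known for its expression in ripe pepper fruit, went from -5.68 and -5.08 to 4.82, 5.24 and 4.90 and rose by 10.36 (SE 0.41). A metallothionein-like type 2 gene (LOC107873510), of a family that binds metal ions, went from -4.08 and -3.17 to 5.67, 6.46 and 6.36 and rose by 9.79 (SE 0.59). At each of these 3 genes the libraries of a stage lay within 1 of each other.

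Of the other 9 of these 12 rises, 6 were at genes of defence, wall loosening and chlorophyll breakdown. An acidic β-1,3-glucanase (LOC107853918) rose by 9.33 and the thaumatin-like pathogenesis-related protein R (LOC107851248) by 8.16, both of them enzymes or proteins that act against fungal walls or membranes. *STAY-GREEN* (LOC107866321), which starts the dismantling of chlorophyll, rose by 8.10. For the wall, a xyloglucan endotransglucosylase/hydrolase (*XTH31-like*, LOC107847799) rose by 8.06, *polygalacturonase-2* (LOC107843830), which cuts pectin, by 8.03, and *expansin-A4-like* (LOC107859598), which loosens the bonds between wall polymers, by 7.93. A peroxisomal benzoate-CoA ligase-like gene (LOC107869830) rose by 8.24, an ascorbate oxidase homolog (LOC107840611) by 7.95 and a 60S ribosomal protein L10-like gene (LOC107877503) by 7.82. Their adjusted p ranged from 3.7e-18 for *expansin-A4-like* to 2.57e-11 for protein R.

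Among genes with a descriptive name, the 12 largest falls were led by a flower-specific defensin-like gene (LOC107849555), at 5.00 and 7.23 in the green libraries and -3.59, -3.47 and -3.61 in the ripe ones. It fell by 9.67 (SE 0.41, adjusted p = 1.69e-13), and its green libraries differed by more than 2 while its ripe ones were nearly alike. Genes of structural wall proteins came next. The BURP domain gene *USPL1-like* (LOC107840399) fell by 8.87 and *proline-rich protein 4-like* (LOC107852839) fell by 8.82. A second BURP domain gene, *BNM2A-like* (LOC107870573), fell by 8.34. The glycine-rich *DC7.1-like* (LOC107864362), which was not in the list of structural wall proteins counted below, fell by 8.53. *Peroxidase 42* (LOC107859584) went from 4.27 and 4.70 to -4.39, -4.25 and -4.41. This secreted class of peroxidase can cross-link wall polymers, and its transcript fell by 8.83 (SE 0.19). The plastid *13S-lipoxygenase 2-1* (LOC107874197), which oxidises linolenic acid on the way to leaf volatiles and jasmonate, fell by 8.55. The cellulose synthase-like gene *CSLG2* (LOC107878055) fell by 8.23 and the plasma membrane water channel gene *PIP2-7* (LOC107840581) fell by 8.22. Finally, 2 *kirola-like* genes (LOC107868415 and LOC107868406), relatives of the latex protein and birch allergen family, changed by -8.23 and -8.11, and a GDSL lipase gene (LOC107850775) fell by 7.87. Reads of the kirola-like, flower defensin-like and 60S L10-like genes may be split between similar copies, whose sequences were not compared here, so their single values are uncertain.

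**Figure D1:**
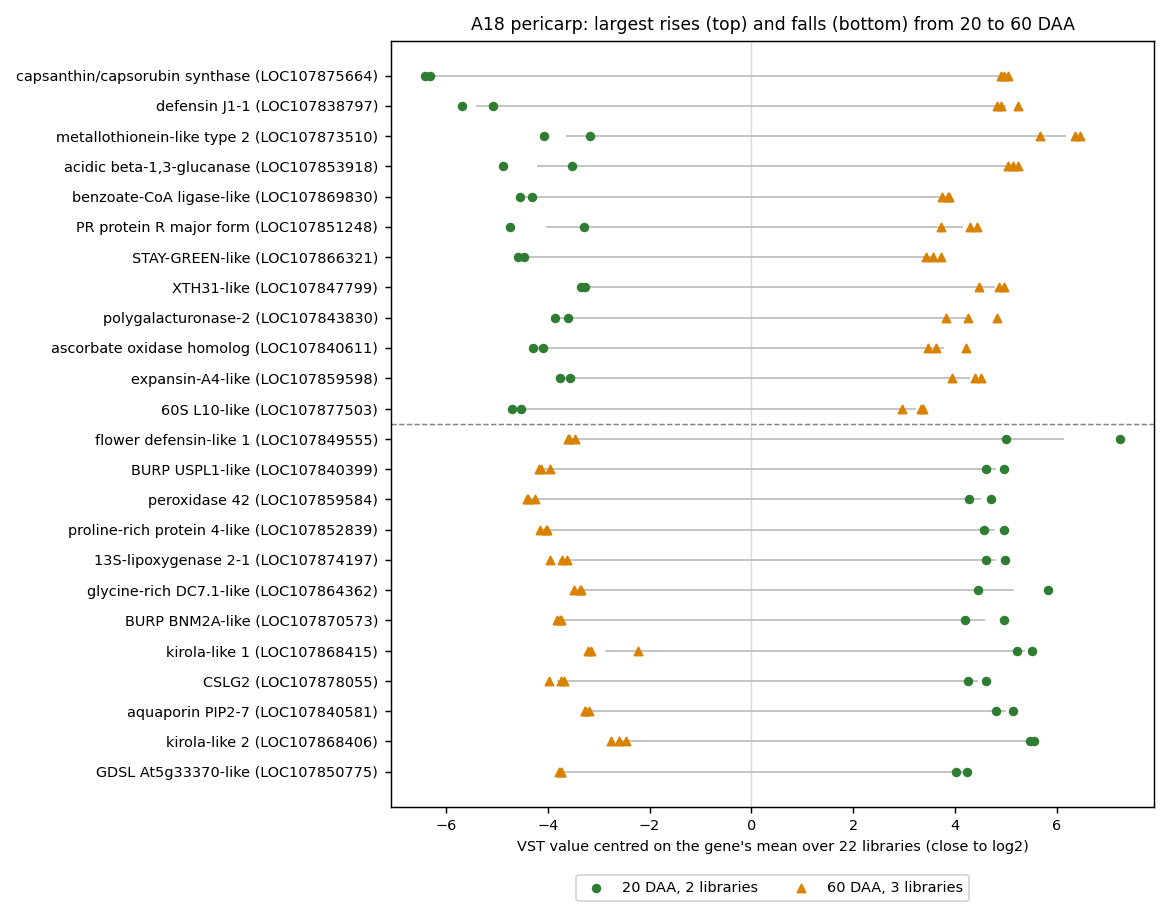
Values of the 12 largest rises and the 12 largest falls among genes with a descriptive name in each of the 5 A18 libraries, on the VST scale centred on each gene's mean over 22 libraries (close to log2). Circles are the 2 libraries at 20 DAA, triangles the 3 at 60 DAA, and lines join the stage means; the stages do not overlap at any of these genes, a rule used to choose them.

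The pigment genes of A18 moved in both directions. Of 21 genes of carotenoid synthesis, 7 rose (33.3%, beside 11.4% over all genes) and 4 fell (19.0%, beside 20.6%). The median difference was 0.02, beside -0.05 over all genes. Behind *CCS*, *beta-carotene hydroxylase 1* (LOC107863219), which makes zeaxanthin, went from -2.76 and -2.73 to 3.45, 3.47 and 3.61 and rose by 6.26 (SE 0.18). The chromoplast phytoene synthase gene (LOC107868281), for the first committed step of the pathway, was at -2.80 and -2.95 in the green libraries and 0.65, 0.46 and -0.05 in the ripe ones. It rose by 3.22 (SE 0.19, adjusted p = 2.48e-11), with its ripe libraries just around the gene's mean. Chromoplast lycopene β-cyclase (LOC107869983) rose by 1.48 and phytoene desaturase (LOC107861625) by 1.16. Falls were led by genes that leaves use: the second phytoene synthase (LOC107859651) fell by 2.02, lycopene ε-cyclase (LOC107840923), which opens the branch to lutein, fell by 2.18, and *LUTEIN DEFICIENT 5* (LOC107850957), a carotene hydroxylase of the P450 family in Arabidopsis, fell by 3.44.

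Of 11 genes of chlorophyll breakdown, 6 rose (54.5%, beside 11.4% over all genes) and 1 fell (9.09%, beside 20.6%). The median of 1.37 was the highest of the 39 gene lists. *Pheophorbide a oxygenase* (LOC107847505), which opens the chlorophyll ring, went from -2.39 and -2.57 to 2.46, 2.68 and 2.67 and rose by 5.08 (SE 0.17). A pheophytinase gene (LOC107854913), which removes the phytol tail, rose by 2.70 and the chlorophyll b reductase *NYC1* (LOC107877925) by 1.37. The 1 fall was that of *STAY-GREEN LIKE* (LOC107867750), by 2.99 (SE 0.29). Of 21 genes of chlorophyll synthesis 3 rose (14.3%, near the 11.4% over all genes) and 7 fell (33.3%, beside 20.6%). The largest of these changes was that of a protochlorophyllide reductase-like gene (LOC107845435), which fell by 5.17.

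Most photosynthetic genes fell. Of 64 genes of the photosystems and light harvesting complexes, 48 fell (75.0%) and 2 rose (3.12%), with a median of -1.91. A chlorophyll a-b binding protein gene (*CAB 1B-like*, LOC107855779) stood at 4.77 and 5.29 in green fruit and at -2.19, -1.95 and -2.16 in ripe fruit and fell by 7.13 (SE 0.23). Its neighbours in size of fall, *CAB 21-like* (LOC107855780) and a second *CAB 1B-like* gene (LOC107855776), changed by -6.94 and -6.27, with the reservation that reads may be split between genes of this family. A gene that rose was *PsaK* (LOC107848242) of photosystem I, at -0.29 and 0.27 against 1.83, 1.93 and 2.12, a difference of 1.97 (SE 0.18). In the Calvin cycle 11 of 23 genes fell (47.8%) and 1 rose (4.35%). A Rubisco small subunit gene (LOC107858580) fell by 6.80 (SE 0.21) and the plastid glyceraldehyde-3-phosphate dehydrogenase *GAPA* (LOC107877699) fell by 3.84 (SE 0.18). Of 72 plastid ribosomal protein genes 6 rose (8.33%, or 17 genes with quantile normalization) and 4 fell (5.56%), with a median of 0.45. Of 38 genes of plastid import, division and plastoglobules 7 rose (18.4%, or 15 genes with quantile normalization) and 3 fell (7.89%). Over all genes 11.4% rose and 20.6% fell.

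Starch genes of the 2 directions differed. Of 14 genes of starch synthesis 9 fell (64.3%, beside 20.6% over all genes) and 1 rose (7.14%, beside 11.4%), with a median of -1.52. Of 29 genes of starch breakdown 7 rose (24.1%, beside 11.4% over all genes) and 5 fell (17.2%, beside 20.6%). The starch branching enzyme gene *SBE1* (LOC107866797) went from 3.35 and 3.22 to -3.79, -3.40 and -3.60 and fell by 6.88 (SE 0.16). The large subunit of ADP-glucose pyrophosphorylase (LOC107840421), the step that commits glucose to starch, fell by 6.42 (SE 0.23), and granule-bound starch synthase *GBSS1* (LOC107863475), which makes amylose, by 4.96 (SE 0.25). Against these, soluble starch synthase 1 (LOC107863104) rose by 1.70 (SE 0.14). On the side of breakdown, an α-amylase-like gene (LOC107867838) went from -3.03 and -2.87 to 3.11, 3.1 and 3.04 and rose by 6.03 (SE 0.13). The plastid β-amylase *BAM1* (LOC107864541) was at -1.21 and -0.82 in green fruit and at 1.42, 2.14 and 2.04 in ripe fruit, and rose by 2.88 (SE 0.50). β-amylase 3 (LOC107869091) rose by 2.83, *AMY2* (LOC107866823) by 1.57 and *AMY1* (LOC107867836) by 1.24. The plastid glucan phosphorylase L-2 (LOC107847630), which can act both ways on glucan chains, fell by 4.86 (SE 0.20).

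Genes that split sucrose went both ways. Of 17 genes of sucrose cleavage and synthesis 5 rose (29.4%, beside 11.4% over all genes) and 8 fell (47.1%, beside 20.6%). The median was -0.05, and 5 fell without the genes that have 3 or more libraries at their lowest value. The vacuolar acid invertase *INV1* (LOC107863437) went from -2.77 and -2.54 to 1.52, 1.86 and 1.99 and rose by 4.45 (SE 0.26). Sucrose synthase *SUS2* (LOC107864054) went from -1.62 and -1.55 to 2.07, 2.40 and 2.35 and rose by 3.86 (SE 0.15). A plastid neutral invertase named *CWIN3* in the study (LOC107850632) rose by 1.88 (SE 0.12). In the other direction, the sucrose synthase genes *SuSy* (LOC107877893) and *SUS1* (LOC107840883) changed by -5.89 (SE 0.28) and -3.32 (SE 0.18), and alkaline/neutral invertase B (LOC107840527) fell by 4.68 (SE 0.14).

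Sugar carriers gave 6 rises (20.0%) and 12 falls (40.0%) among 30 genes, beside 11.4% and 20.6% over all genes. *SWEET10* (LOC107856010), of a family that lets sugars cross membranes both ways, went from -2.33 and -2.68 to 1.84, 1.15 and 1.49 and rose by 4 (SE 0.27), while *SWEET7-like* (LOC107863962) fell by 6.01 (SE 0.49). The inositol transporter 1 gene (LOC107875738) rose by 6.08 (SE 0.31). The vacuolar membrane monosaccharide carriers went opposite ways: *MSSP2* (LOC107866769) rose by 3.60 (SE 0.23), while an *MSSP2-like* gene (LOC107859760) went from 4.12 and 3.92 to -1.68, -1.20 and -1.50 and fell by 5.48 (SE 0.27). The *NAC2* transcription factor gene (LOC107867776), which the study lists with its sugar genes, went from -2.48 and -2.51 to 2.22, 2.65 and 2.59 and rose by 4.98 (SE 0.16). All 11 genes of that sugar list passed the test in A18, 8 of them as rises and 3 as falls, but the study chose the list on libraries that include these.

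**Figure D2:**
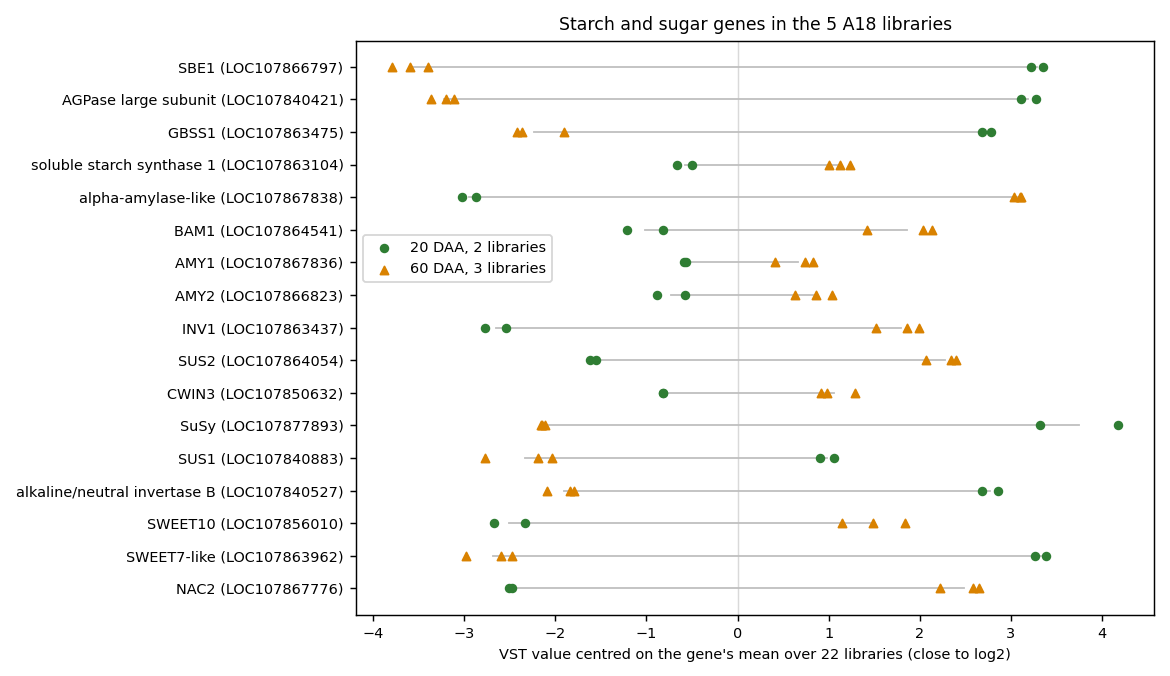
Starch and sugar genes and *NAC2* in the 5 A18 libraries, as VST values centred on each gene's mean over 22 libraries (close to log2). Circles are the 2 libraries at 20 DAA, triangles the 3 at 60 DAA and lines join the stage means; *SBE1*, the AGPase large subunit and *GBSS1* lie above 2 in green fruit and below -1 in ripe fruit, the α-amylase-like gene the reverse.

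The wall genes of A18 fell in number, while a few of each family rose steeply. Among 93 pectin genes 10 rose (10.8%, near the 11.4% over all genes) and 49 fell (52.7%, beside 20.6%), with a median of -1.21. Among 66 genes of expansins, xyloglucan and cellulose enzymes 15 rose (22.7%) and 36 fell (54.5%), with a median of -1.44. Among 72 genes of structural wall proteins 4 rose (5.56%) and 58 fell (80.6%), with a median of -2.21. Next to *polygalacturonase-2*, which went from -3.60 and -3.86 to 4.83, 4.26 and 3.81, a β-galactosidase-like gene (LOC107840962) rose by 7.01 (SE 0.22) and pectinesterase 29 (LOC107851094) by 5.10 (SE 0.19). These enzymes trim the side chains of pectin or free its acid groups. Other members of the same families fell, such as β-galactosidase 8 (LOC107847649, -5.56, SE 0.14) and pectate lyase 5 (LOC107848183, -5.91, SE 0.29). Besides the rise of *XTH31-like* there was a fall of *XTH9* (LOC107878276), from 4.03 and 3.72 to -3.47, -3.30 and -3.29 (-7.23, SE 0.24), and the cellulose synthase gene *CesA2* (LOC107867632) fell by 7.01 (SE 0.40). *Extensin-1-like* (LOC107867675) was the largest rise of the structural proteins, from -3.94 and -4.50 to 2.85, 3.34 and 3.16 (7.34, SE 0.46).

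Genes of the fruit surface and of phenolic compounds fell in large part. Of 96 cuticle and lipid transfer genes, 68 fell (70.8%, beside 20.6% over all genes) and 8 rose (8.33%, beside 11.4%), with a median of -2.17. A non-specific lipid transfer protein gene (LOC107845895) fell by 7.63 (SE 0.22). *HOTHEAD-like* (LOC107876092), whose Arabidopsis namesake acts in the synthesis of cutin monomers, went the other way, from -3.93 and -3.48 to 3.26, 2.66 and 2.92, and rose by 6.65 (SE 0.22). The ethylene response factor *WIN1-like* (LOC107840776), which activates cuticle genes in Arabidopsis, fell by 3.58 (SE 0.18). Among 96 phenylpropanoid and flavonoid genes 54 fell (56.2%, beside 20.6% over all genes) and 11 rose (11.5%, near the 11.4% over all genes). Their median was -1.49. A hydroxycinnamoyltransferase gene (*HCT-like*, LOC107840863) fell by 7.46 (SE 0.25) and a phenylalanine ammonia-lyase gene (LOC107854291), the entry to the pathway, fell by 5.95 (SE 0.20), while *cinnamoyl-CoA reductase 2-like* (LOC107866761) rose by 4.04 (SE 0.12). Oxylipin genes fell in 14 of 21 cases (66.7%) and rose in 2 (9.52%). The falls included 9S-lipoxygenase 5 (LOC107854880, -6.08, SE 0.16) and hydroperoxide lyase (LOC107863949, -5.10, SE 0.25), which forms the green leaf volatiles.

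Hormone genes moved in both directions. Of 37 genes of abscisic acid (ABA) synthesis and response 10 rose (27.0%, beside 11.4% over all genes) and 9 fell (24.3%, beside 20.6%), with a median of 0.05. The rate-limiting enzyme of ABA synthesis, *NCED1* (LOC107852027), went from -2.27 and -2.15 to 2.88, 3.23 and 3.41 and rose by 5.38 (SE 0.24), and the ABA receptor gene *PYL12-like* (LOC107858118) rose by 3.96 (SE 0.21), while a xanthoxin dehydrogenase-like gene (LOC107855067) fell by 3.09 (SE 0.15). Of 28 ethylene genes 2 rose (7.14%, or 5 genes with quantile normalization) and 7 fell (25.0%), shares near those of all genes (11.4% and 20.6%), with a median of 0.04. An ACC oxidase-like gene (LOC107859634), for the last step of ethylene synthesis, fell by 5.2 (SE 0.55), and a second ACC oxidase gene (LOC107857536) went from 0.15 and 0.77 to -2.80, -2.82 and -2.86 and fell by 3.29 (SE 0.20). The 2 rises were *EBF1-like* (LOC107855207), named after an Arabidopsis F-box protein that targets the ethylene signaling factor *EIN3* for degradation, by 3.34 (SE 0.35), and *ACO homolog 4-like* (LOC107870641), of an oxygenase family that need not make ethylene, by 5.13 (SE 0.15). Auxin genes gave 11 rises and 38 falls among 71 (median -1.13). *GH3.1* (LOC107840207), whose family joins auxin to amino acids, went from -3.75 and -3.80 to 3.62, 3.50 and 3.98 and rose by 7.48 (SE 0.19), and the auxin response repressor *IAA16* (LOC107839415) fell by 4.94 (SE 0.38).

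Of 108 genes of the cell cycle and microtubules 44 fell (40.7%), 5 rose (4.63%) and 59 passed in neither direction (median -0.58). Of 111 genes of DNA replication and histones 59 fell (53.2%), 4 rose (3.60%) and 48 passed in neither direction (median -1.11). Over all genes 20.6% fell and 11.4% rose. With quantile normalization the rises were 9 and 8. *Cyclin-D1-1* (LOC107847989), which drives entry into the cycle, was at 2.31 in both green libraries and at -1.96, -2.18 and -2.18 in the ripe ones and fell by 4.41 (SE 0.22). *Histone H3.2* (LOC107859340) fell by 4.97 (SE 0.19). The rises included a *CDC48* homolog (LOC107862559), by 4.47 (SE 0.14), whose protein unfolds ubiquitinated proteins and is no cyclin. Cytosolic ribosomal proteins gave 8 rises (3.88%) and 7 falls (3.40%) among 206 genes. Here a single green library decided the counts, which were 4 rises and 12 falls without 20 DAA library a and 22 and 4 without 20 DAA library b.

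Defence genes were split. Of 105 genes of defensins, pathogenesis-related proteins and protease inhibitors 18 rose (17.1%, beside 11.4% over all genes) and 50 fell (47.6%, beside 20.6%). The median was -0.93, and the steep rises of defensin J1-1, the acidic glucanase and protein R stood beside a larger number of falls. Without genes that have 3 or more libraries at their lowest value 33 fell. Of 36 heat shock protein genes 5 rose and 5 fell, 13.9% each, beside 11.4% and 20.6% over all genes. Without 20 DAA library a the heat shock counts were 3 and 8, and 10 rose without 20 DAA library b. A 70 kDa heat shock protein gene (*HSP70*, LOC107862051) went from -2.31 and -2.23 to 1.08, 0.56 and 1.29 and rose by 3.25 (SE 0.31). Antioxidant genes gave 25 rises and 19 falls among 93, or 26.9% of rises beside 11.4% over all genes, led by the metallothionein-like gene and the ascorbate oxidase homolog.

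Among transcription factors, 8 of 23 *NAC* genes rose (34.8%) and 4 fell (17.4%), beside 11.4% and 20.6% over all genes. The *NAC* gene *NAC72-like* (LOC107842449) rose by 3.75 (SE 0.28). Of 32 MADS-box and SBP genes 5 rose (15.6%, or 10 genes with quantile normalization) and 13 fell (40.6%). The MADS-box gene *CMB1-like* (LOC107843064), of the family that holds the fruit ripening regulator of tomato, went from -2.49 and -1.91 to 3.21, 2.20 and 2.12 and rose by 4.71 (SE 0.24), and the *AGL8* homolog (LOC107855404), a relative of *FRUITFULL*, rose by 2.87 (SE 0.16). *SBP1-like* (LOC107859362) fell by 4.41 (SE 0.27). *WRKY31* (LOC107859607) rose by 4.44 (SE 0.19) in a family with 5 rises and 5 falls among 23 genes (21.7% each). MYB factors fell in 18 of 37 cases (11 without the genes that have 3 or more libraries at their lowest value) and rose in 2 (4 with quantile normalization, 1 without 60 DAA library b or c). The falls included *MYB6-like* (LOC107862576, -3.71, SE 0.17), and AP2/ERF factors gave 8 rises (13 with quantile normalization) and 16 falls among 47. The response regulator *APRR2* (LOC107869180), which in pepper is linked to the green colour of immature fruit, went from 2.52 and 2.70 to -1.07, -1.06 and -0.93 and fell by 3.63 (SE 0.28), and the blue light receptor *phototropin-1* (LOC107847595) fell by 4.94 (SE 0.31).

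Of the genes of the organic acid cycle and the respiratory chain 14.9% rose and 6.93% fell (15 and 7 genes, median 0.25), beside 11.4% and 20.6% over all genes. The falls were 11 without 20 DAA library a and 4 with quantile normalization. *Phosphoenolpyruvate carboxylase* (LOC107845307), which feeds carbon into malate, went from -0.75 and -0.76 to 1.24, 1.49 and 1.95 and rose by 2.31 (SE 0.18), and the NADP isocitrate dehydrogenase gene (LOC107880057) fell by 3.51 (SE 0.16). *Nitrate reductase* (LOC107867964), which was looked at after its values had been seen, went from -2.48 and -2.79 to 3.07, 3.49 and 3.66 and rose by 6.04 (SE 0.22). The largest changes among genes with no descriptive name were the falls of LOC107845330 (-9.22, SE 0.34) and LOC107868320 (-8.73, SE 0.25) and the rises of LOC107870109 (7.42, SE 0.38) and LOC107866045 (6.88, SE 0.14).

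**Figure D3:**
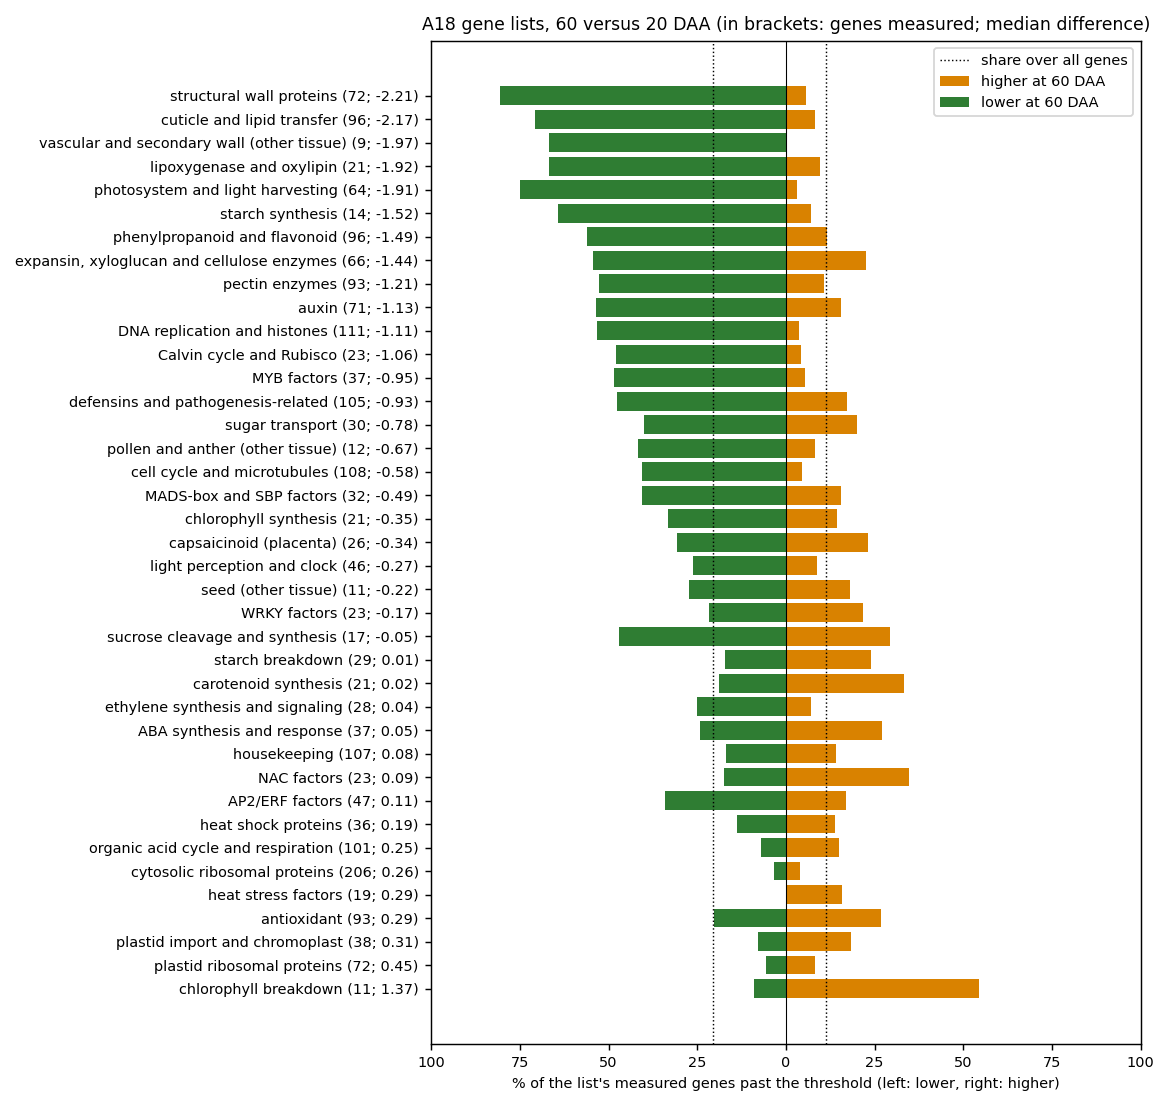
Share of each of 39 gene lists that rose (right, orange) or fell (left, green) between 20 and 60 DAA in A18, in % of the genes measured, sorted by the median difference given in brackets after the number of genes. Dotted lines mark the shares over all 16922 genes, 11.4% for rises and 20.6% for falls; structural wall proteins, cuticle and photosystem genes reach 70.8% to 80.6% of falls, and chlorophyll breakdown has the largest share of rises, 54.5%.

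The samples were labelled as pericarp, and genes of other tissues were looked at for that reason. *CCS*, defensin J1-1 and *polygalacturonase-2* were higher at 60 DAA and the *CAB* genes higher at 20 DAA in all 5 libraries, but these genes were named for their change in this same contrast, so that this is no check of the labels. Because the values are centred, the level of a marker against other genes cannot be given, and only changes of it can. The mean centred value of 9 vascular genes was 0.78 and 1.03 in the green libraries and -0.82 to -0.92 in the ripe ones. Of the 9, 6 fell (66.7%, beside 20.6% over all genes), such as xylem cysteine proteinase 2-like (LOC107859272, -3.96, SE 0.32). Of 12 pollen and anther genes 5 fell (41.7%, beside 20.6% over all genes) and 1 rose (8.33%, beside 11.4%). The falls included *SF21-like* (LOC107877875, -3.76, SE 0.17). Of 11 seed genes 3 fell and 2 rose. The largest fall among them was a basic 7S globulin-like gene (LOC107841115, -5.71, SE 0.12), and the storage protein gene *vicilin C72-like* (LOC107854665) was at -0.90, its lowest value, in both green libraries and in 60 DAA library b, and at 0.82 and 1.01 in the other ripe ones. Its rise of 1.21 (SE 0.50, adjusted p = 0.0422) did not pass without either green library, nor without 60 DAA library a (0.95) or c (0.86). Of 26 genes of the fatty acid and amino acid branches that feed capsaicinoid synthesis in the placenta 6 rose (23.1%, beside 11.4% over all genes) and 8 fell (30.8%, beside 20.6%). The largest falls were those of 2 genes of the same name, 3-oxoacyl-ACP synthase I (LOC107864098, -4.79, and LOC107864113, -4.53). The largest rises were those of a branched-chain aminotransferase-like gene (LOC107852061, 2.79) and of a 3-oxoacyl-ACP synthase II-like gene (LOC107840885, 2.15). Less vascular, seed or placental tissue in a library and less of the RNA per cell cannot be told apart in bulk pericarp, and the part of either in the changes above was not tested.

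How A18 differed from the other accessions was tested by setting its stage change against the mean stage change of Hab, A101 and Biq. The change was more positive in A18 at 402 genes (2.38% of 16922) and more negative at 626 (3.70%), or 1028 genes in all (6.07%). At 336 and 538 of these the A18 change also lay outside the range of the other 3 accessions. Of the 402, A18 itself rose at 119, fell at 69 and passed the test in neither direction at 214. Of the 626, A18 fell at 306, rose at 109 and passed in neither direction at 211. No gene that passed in A18 passed the opposite way in all 3 others, and 50 did so in at least 1 of them.

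Set against each accession in turn, the A18 stage change differed from that of Hab at 2823 genes (16.7%), of which 1280 were more positive (7.56%) and 1543 more negative (9.12%). Against Biq there were 1939 (11.5%), with 848 (5.01%) and 1091 (6.45%), and against A101, the other yellow accession, 814 (4.81%). These 3 comparisons share the A18 libraries. Within a stage the A18 libraries were also nearest to A101, at distances of 65.46 to 75.46 at 20 DAA and 69.97 to 85.49 at 60 DAA, against 83.87 to 93.96 and 91.07 to 102.2 for Biq and 84.06 to 93.67 and 99.87 to 114.5 for Hab. Of all 16922 genes, the A18 change differed from that of each of the 3 others, in the same direction, at 71 (more positive) and 95 (more negative).

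**Figure D4:**
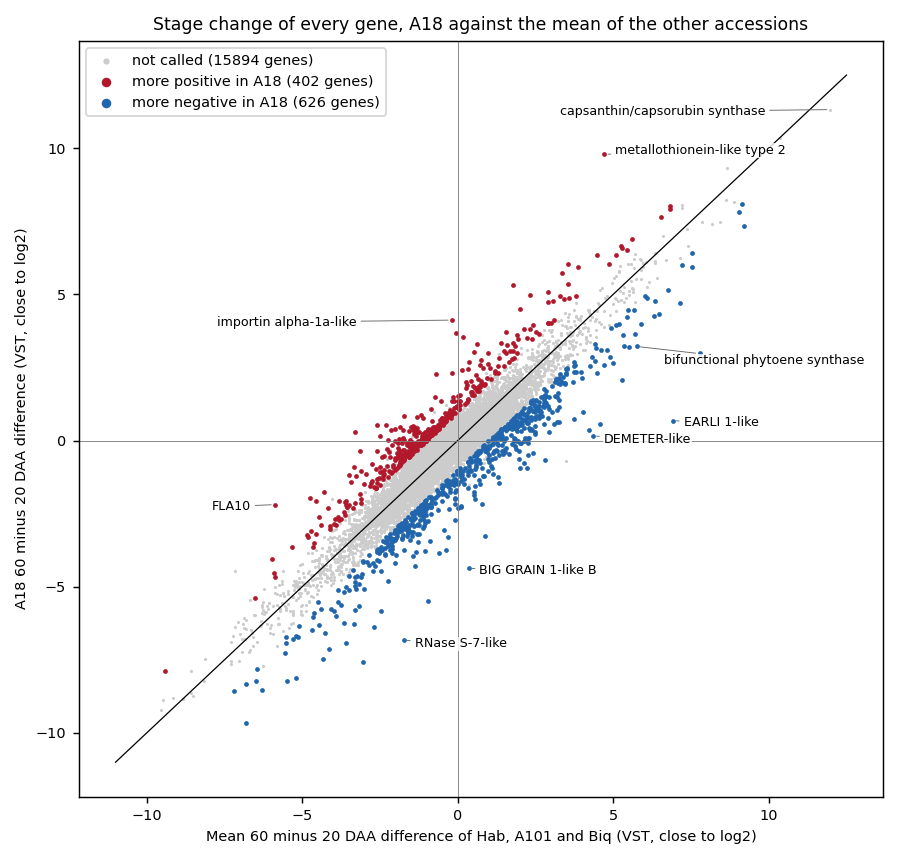
Stage change (60 minus 20 DAA, VST scale, close to log2) of all 16922 genes in A18 (vertical) against the mean of Hab, A101 and Biq (horizontal), with the line of equal change. Red points are the 402 genes with a more positive and blue points the 626 with a more negative change in A18; *CCS* lies near the line, the metallothionein-like gene above it and *EARLI 1-like* below it.

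The metallothionein-like gene LOC107873510 was the farthest above the others. Its rise of 9.79 in A18 stood beside 7.18 in A101, 5.06 in Hab and 1.92 in Biq, a difference of 5.06 from their mean (SE 0.67, adjusted p = 2.52e-05). The stage means of A18 were -3.62 and 6.16, and ripe Biq stood at -2.71. A second metallothionein-like gene (LOC107874435), looked at after its values had been seen, went from -0.50 and -0.44 to 2.12, 2.64 and 2.89 in A18 and rose by 3.02, while it changed by 0.81, 0.75 and 0.00 in Hab, A101 and Biq. Both genes differed from each of the 3 others.

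*Importin subunit α-1a-like* (LOC107867057), an adaptor for protein import into the nucleus, was at -0.50 and -0.80 in green A18 fruit and at 4.23, 3.07 and 3.1 in ripe fruit. It rose by 4.12 (SE 0.24) in A18 alone, beside -0.45, 0.14 and -0.26 in Hab, A101 and Biq, none of which passed the test, and it differed from each of them. A pair of *GSTU9-like* glutathione transferase genes also rose more in A18 than in the mean of the others: LOC107864633 went from 0.07 and -0.10 to 3.66, 3.09 and 3.83 and rose by 3.55, beside 1.15, -0.58 and -0.10, and LOC107864635 rose by 3.31, beside 1.43, -0.58 and 1.00. Reads could be shared between this pair. *CER1-like* (LOC107854358), whose Arabidopsis namesake forms wax alkanes, went from -0.37 and -0.58 to 1.73, 1.51 and 2.14 and rose by 2.27 in A18, while Hab and A101 changed by -1.06 and -1.01 and Biq by -0.04. The transcription factor gene *ERF113* (LOC107862115) rose by 3.71, beside 1.77, 0.58 and 2.32. The receptor kinase gene *GSO1* (LOC107862548) rose by 4.97 in A18 and by 1.76, 1.19 and 4.04 in Hab, A101 and Biq, and it differed from Hab and A101 but did not pass against Biq (0.93, adjusted p = 0.0627).

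Some genes were more positive in A18 because they fell less. *FLA10* (LOC107873295), a fasciclin-like arabinogalactan protein of the cell surface, changed by -2.19 (SE 0.17) in A18, against -6.01, -5.92 and -5.71 elsewhere (Hab, A101 and Biq in this order). Its mean was 1.95 in green A18 fruit, close to the 2.48 to 2.74 of the others, and -0.24 in ripe A18 fruit, against -3.23 to -3.40. The receptor-like kinase gene *TMK3* (LOC107875681) and the WAT1-related transporter gene At4g30420 (LOC107854253) changed by -1.98 and -1.77, against -4.48 to -5.18 and -3.69 to -4.85. At these 2 genes it was the green fruit of A18 that stood apart, with means of -0.35 and -0.09 against 2.55 to 2.89 and 1.82 to 2.63.

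At the other end, *EARLI 1-like* (LOC107867449), a lipid transfer protein gene, was at -1.83 and -2.14 in green A18 fruit and -1.37, -1.16 and -1.39 in ripe fruit. Its difference of 0.68 (SE 0.15) did not reach the size asked for, beside rises of 10.32, 7.46 and 2.97 in the 3 others, and it differed from their mean by -6.24 (SE 0.17, adjusted p = 9.46e-15). With quantile normalization its own difference was 1.20 and passed. A *DEMETER-like* gene (LOC107853985), named after an Arabidopsis enzyme that removes methylated cytosines from DNA, stayed between -1.47 and -1.79 in all 5 A18 libraries. The difference was 0.16 (SE 0.18, adjusted p = 0.464), beside rises of 4.24, 4.06 and 4.75. The gene named *DEMETER* itself (LOC107850478), given here for comparison, changed by -2.27 in A18 and by -2.69, -1.67 and -2.28 in the others. A defensin-like gene (LOC107854042) was at -1.79 in both green A18 libraries and at -1.31, -1.16 and -1.23 in the ripe ones, a difference of 0.56, or 1.07 and past the threshold with quantile normalization, beside rises of 4.10, 4.29 and 5.36. The *kirola-like* gene (LOC107870775) changed by 0.37 in A18 and rose by 7.70, 3.66 and 1.28, the last of which was not told apart from A18 by the threshold used (a difference of -0.91). In all 4 genes ripe A18 fruit stayed near the level of green fruit.

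*Endoglucanase 18-like* (LOC107864477), which cuts cellulose chains, went from -2.85 and -3.44 to 0.40, -0.16 and -0.64. It rose by 3.01 (SE 0.23) in A18 against 7.02, 8.93 and 7.41, and ripe A18 fruit had a mean of -0.14 against 3.14 to 5.82. Chromoplast phytoene synthase, described above, also rose less in A18 than in each of the others, by 3.22 against 4.56 in A101, 5.92 in Biq and 6.77 in Hab, and differed from their mean by -2.53 (SE 0.22, adjusted p = 1.77e-07). *CCS*, by contrast, gave no difference past the threshold (-0.67, SE 0.41, adjusted p = 0.245). *SWEET10* rose by 4 against 7.18, 5.16 and 5.34, and *NAC83* (LOC107876783) changed by 0.61 (adjusted p = 0.0335) against rises of 3.00, 1.71 and 1.98.

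Another set was high in green A18 fruit. *BIG GRAIN 1-like B* (LOC107848983), whose rice namesake acts in auxin response and grain size, was at 3.77 and 3.71 in green A18 fruit and at -0.53, -0.53 and -0.81 in ripe fruit. It fell by 4.37 (SE 0.14), beside 0.49, -0.61 and 1.17, and the green fruits of the others had means of -0.21 to -0.72. A ribonuclease S-7-like gene (LOC107877516), related to the ribonucleases of self-incompatibility, was at 5.69 and 6.76 and then -0.48, -0.67 and -0.66. It fell by 6.83 (SE 0.42), beside -2.71 and -1.91 in Hab and A101, both falls, and -0.58 in Biq. A second flower-specific defensin-like gene (LOC107852222) fell by 7.57 (SE 0.34), beside -4.65, -4.21 and -0.24, and 2 of its ripe A18 libraries were at its lowest value. Aquaporin *PIP2-7* and alkaline/neutral invertase B also fell more than in each of the others, with changes of -8.22 against -6.30 to -6.63 and of -4.68 against -2.82 to -3.55. A second 60S L10-like gene (LOC107873046) was at 0.72 and 1.37 and then -0.44, -3.11 and -3.11, and its fall of 3.26 had an SE of 0.96, the largest of the genes named here. The fall did not pass without 20 DAA library b (-2.94).

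**Figure D5:**
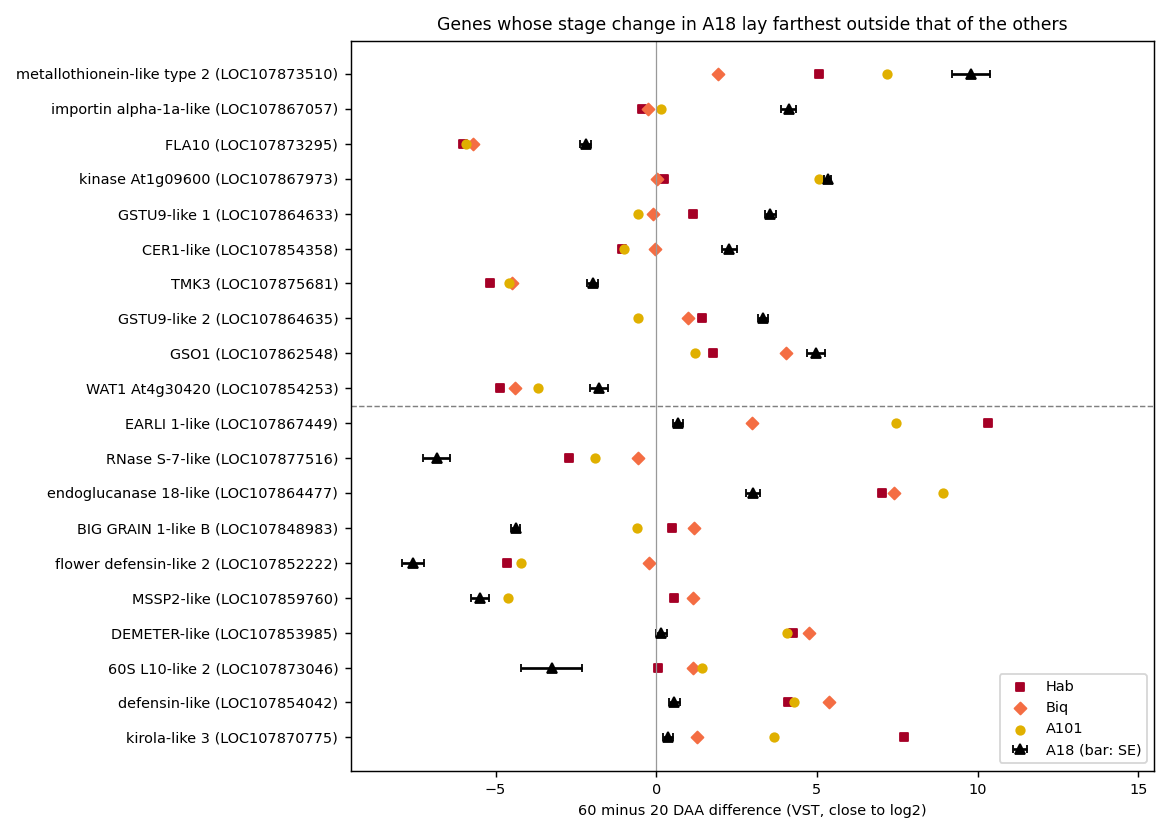
Stage change (60 minus 20 DAA, VST scale, close to log2) of the 10 named genes farthest above (top) and the 10 farthest below (bottom) the mean of the other accessions, among those outside the range of all 3. Black triangles are A18 with bars of 1 standard error and coloured symbols are Hab, A101 and Biq; at *MSSP2-like* and the kinase At1g09600 the A101 symbol lies close to A18.

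At other genes A18 went with A101. *MSSP2-like* changed by -5.48 in A18 and -4.62 in A101, against 0.56 in Hab and 1.14 in Biq. It differed from the mean of the 3 others by -4.51, and from A101 by -0.86 (adjusted p = 0.124). The kinase gene At1g09600 (LOC107867973) rose by 5.33 in A18 and 5.05 in A101 and changed by 0.25 and 0.01 in Hab and Biq, so that its difference of 3.56 from the mean rested on the latter. The ACC oxidase gene LOC107857536 changed by -3.29 in A18, -2.91 in A101, 2.05 in Hab and -0.09 in Biq. *Nitrate reductase* rose by 6.04 in A18, 5.28 in A101, 4.27 in Biq and 1.10 in Hab.

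The same held for several gene lists. Of the 64 photosystem genes 17 were more negative in A18 than in the mean of the others and 2 more positive, while against A101 alone 1 was more negative and 4 more positive. Over all genes 3.70% were more negative and 2.38% more positive than the mean, and 2.32% and 2.49% than A101. The median change of the photosystem genes was -1.91 in A18, -2.48 in A101, -1.57 in Hab and -0.78 in Biq. *CAB 1B-like* changed by -7.13 in A18, -6.84 in A101, -3.48 in Hab and -2.07 in Biq. Of the 36 heat shock protein genes 10 were more negative than the mean of the others, and none was against A101. *HSP70* rose by 3.25 in A18 and 2.39 in A101, and by 7.20 and 6.43 in Hab and Biq.

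Defence genes differed from A101 too. Of the 105 defensin and pathogenesis-related genes 27 were more negative in A18 than in the mean of the others and 2 more positive, or 21 and 4 against A101 alone, and 9 were more negative than in each of the 3 others. Over all genes, the corresponding shares were 3.70% and 2.38% against the mean and 2.32% and 2.49% against A101. More negative than in each of the 3 others were 95 of all 16922 genes. Of the 72 structural wall protein genes 14 were more negative and 6 more positive than in the mean of the others, with 8 and 3 against A101. For starch breakdown none of the 29 genes differed from the mean of the others, and for starch synthesis 1 of 14 did, so that a difference between A18 and the rest was not shown for nearly all of those genes.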

How the data were processed

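Pericarp RNA of 22 libraries (4 accessions at 20 and 60 DAA) was sequenced on an Illumina HiSeq instrument. According to the methods of the study, the authors trimmed reads with fastp 0.23.1, estimated transcript abundances with Salmon 1.6.0 against the genome and transcriptome of *C. annuum* Zunla-1, imported them by gene, and variance-stabilised the counts with DESeq2 1.36.0 under R 4.2.0. Reads of *C. chinense* were thus assigned to genes of another pepper species, so genes absent from that reference were not measured and sequence differences between accessions could lower an estimate. The deposited values are on a scale close to log2 and are centred for each gene, which was checked on the file. Variance stabilisation compresses differences at low counts, and 1290 of 16922 genes had 3 or more libraries at a shared lowest value. Counts and library sizes were not used here, so no counting interval is given. The columns of a group share 1 name, so they were mapped to groups only, and the blocks of the randomized block design that the methods mention could not be entered.

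The table was tested as deposited with limma 3.58.1 under R 4.3.3, with a mean for each accession and stage over all 22 libraries (14 residual degrees of freedom). The 3 contrasts were the A18 stage change, that change minus the mean of the other accessions, and minus each of them. Genes passed at an adjusted p (Benjamini-Hochberg, over all genes) under 0.05 with a difference of at least 1, and every adjusted p given is limma's. Among genes with a descriptive name, those named were the 12 largest rises and falls with stages that did not overlap, the 3 largest changes each way in each of 39 lists (of which the text gives a part), the 11 sugar genes of the study, the 10 farthest from the other accessions each way, and 2 unnamed IDs each way. Lists were built by matching words in gene names, and a few exclusions were added after values had been seen to drop words found inside other names. The members and lists were chosen with earlier results of these data known. No gene ID matched the sequence tables at hand, so no sequence is shown. The scripts were tested on simulated data. Figures were drawn with matplotlib 3.10.9 in Python 3.11.15.

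As alternatives, the libraries were quantile normalized, centred on their medians or weighted, robust variance moderation was used, the minimum difference was dropped or tested with limma's treat against 1, genes with 3 or more libraries at the lowest value were left out, the 5 A18 libraries were fitted alone, A18 was compared with A101 or Biq alone, and each library was left out in turn. Alternatives for the library distances, the leave-one-out counts against single accessions and the lists without lowest-value genes were chosen after seeing the data.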

Additional observations from a re-analysis of the deposited data

Results flagged for a closer look

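By limma, the A18 stage change differed from the mean of Hab, A101 and Biq at 62 of 137 genes looked at in detail. Over all 16922 genes it did so at 1028 (6.07%). The genes looked at in detail included the 10 farthest from the other accessions each way, which were chosen by this same contrast. The count of 62 thus follows in part from that choice and does not show how common such differences are. The values below are the A18 change minus the mean of the other accessions, on the VST scale. Those of similar copies carry the reservation given above. No explanation was tested for any of the 62 genes.

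Genes more positive in A18 were led by the metallothionein-like gene (5.06), *importin α-1a-like* (4.31), *FLA10* (3.69) and the kinase gene At1g09600 (3.56). The *GSTU9-like* pair (3.39 and 2.70), *CER1-like* (2.97), *TMK3* (2.77), *GSO1* (2.64), the WAT1-related gene (2.54), the second metallothionein-like gene (2.50) and *nitrate reductase* (2.49) followed. Smaller differences were those of *ERF113* (2.15), *APRR2* (1.71), *MSSP2* (1.70), the GDSL lipase gene (1.53), the unnamed LOC107866045 (1.28), *polygalacturonase-2* (1.20), *expansin-A4-like* (1.11) and *phosphoenolpyruvate carboxylase* (1.03). Of these, *polygalacturonase-2* fell below the threshold without 60 DAA library a (0.94), and *expansin-A4-like* (0.99) and *phosphoenolpyruvate carboxylase* (0.83) without 60 DAA library c. Against A101 alone the kinase gene At1g09600, *nitrate reductase*, *APRR2*, the GDSL lipase gene, LOC107866045 and *polygalacturonase-2* did not pass.

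Genes more negative in A18 were led by *EARLI 1-like* (-6.24), the S-7-like ribonuclease gene (-5.10), *endoglucanase 18-like* (-4.78) and *BIG GRAIN 1-like B* (-4.71). Defence genes and their relatives among them were the flower-specific defensin-like genes LOC107852222 (-4.54) and LOC107849555 (-2.85), the defensin-like gene LOC107854042 (-4.02) and the *kirola-like* genes LOC107870775 (-3.84), LOC107868406 (-2.90) and LOC107868415 (-2.74). The *DEMETER-like* gene lay at -4.19 and the 60S L10-like genes LOC107873046 and LOC107877503 at -4.14 and -1.22. The former of that pair did not pass without 20 DAA library b (-3.82). Against A101 alone LOC107877503, LOC107849555 and the *kirola-like* genes LOC107868406 and LOC107868415 did not pass.

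Of the photosynthetic genes, *CAB 21-like* lay at -3.34, the *CAB 1B-like* genes LOC107855779 and LOC107855776 at -3 and -2.95, *GAPA* at -1.73, the Rubisco small subunit gene at -1.52 and *PsaK* at -1.25. None of these photosynthetic genes passed against A101 alone. Pigment genes were phytoene synthase (-2.53), the protochlorophyllide reductase-like gene (-1.50), *STAY-GREEN* (-1.06) and the pheophytinase gene LOC107854913 (-1.03). The last 3 lost their call when any of several libraries was left out, among them 20 DAA library a for the reductase (-0.82) and 20 DAA library b for *STAY-GREEN* (-0.99) and the pheophytinase (-0.94), and *PsaK* did so without 20 DAA library b (-0.97). With quantile normalization *STAY-GREEN* (-0.41), the pheophytinase (-0.70) and the reductase (-1.41, adjusted p = 0.0819) also lost it, as did the 60S L10-like gene LOC107877503 (-0.68), the *CDC48* homolog (-0.52) and *extensin-1-like* (-1.04, adjusted p = 0.101). Of the pigment genes only phytoene synthase passed against A101 alone. Sugar genes were *MSSP2-like* (-4.51), *SWEET7-like* (-2.12), *SWEET10* (-1.89), alkaline/neutral invertase B (-1.58) and *SuSy* (-1.27, or -0.84 and not past the threshold without 20 DAA library a). Of these, *MSSP2-like*, *SWEET7-like* and *SuSy* did not pass against A101 alone. In the fold changes that the study reported, *SuSy* fell less in A18 than in Hab, A101 or Biq. That order is the opposite of the one on the VST scale.

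Glycine-rich, wall and surface genes were *DC7.1-like* (-2.25), *extensin-1-like* (-1.87), the BURP domain gene *BNM2A-like* (-1.52) and *PIP2-7* (-1.74). Without 20 DAA library b *DC7.1-like* (-1.56) and *BNM2A-like* (-1.15) lost their call, and without 20 DAA library a *extensin-1-like* did (-1.59). Of these glycine-rich, wall and surface genes only *PIP2-7* passed against A101 alone. *BNM2A-like* changed by -8.34 in A18 and by -8.33 in A101. Ethylene and oxylipin genes were the ACC oxidase gene LOC107857536 (-2.97), an ACC synthase-like gene (LOC107864513, -1.61), *13S-lipoxygenase 2-1* (-1.37) and hydroperoxide lyase (-1.26). None of these ethylene and oxylipin genes passed against A101 alone. The ACC synthase-like gene was at 0.03 and -0.03 in green A18 fruit and -0.44, -0.14 and -0.51 in ripe fruit, a difference of -0.36 that did not pass (adjusted p = 0.0836), beside 1.40 in Hab, 0.57 in A101 and 1.78 in Biq. The others were *HSP70* (-2.09), *NAC83* (-1.62), the *AGL8* homolog (-1.44), *SF21-like* (-1.26), the NADP isocitrate dehydrogenase gene (-1.25) and the *CDC48* homolog (-1.01, or -0.80 and not past the threshold without 20 DAA library a). Of these only *NAC83* passed against A101 alone.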

How the results depend on the processing

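No paired analysis was possible because the columns of the table carry no replicate numbers. With no minimum difference, 11207 genes changed in A18 (5091 higher, 6116 lower), 4371 differed from the mean of the others (1934 more positive, 2437 more negative), 495 from each accession in the same direction, 7403 from Hab, 2036 from A101 and 5790 from Biq. The treat test gave 1154 rises in A18 and 141 differences from the mean (38 more positive, 103 more negative). Taking A101 alone in place of the mean gave 393 more negative genes, and Biq alone 1939 (848 and 1091). Against A101 alone the difference turned for *polygalacturonase-2* (-0.45), the protochlorophyllide reductase-like gene (0.32), *CAB 1B-like* LOC107855776 (0.34), *PsaK* (0.46) and *HSP70* (0.86). With quantile normalization the distance between stages was at least 196.7 and that within a stage at most 48.4.

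Leaving out each library gave 5298 to 5544 genes changed in A18 (1849 to 2010 rises, 3416 to 3534 falls), 909 to 1247 different from the mean of the others (332 to 511 more positive, 577 to 736 more negative), 152 to 216 from each accession, 2564 to 3062 from Hab, 708 to 976 from A101 and 1784 to 2248 from Biq. The lists held 987 to 1009 calls in all. No gene called in A18 was called in the opposite direction under the alternatives run. Of 137 A18 differences of genes looked at in detail, 4 lost their call under some alternative: *vicilin C72-like*, the 60S L10-like gene LOC107873046, phytoene desaturase and *AMY1*, the last 2 only under treat. Of 62 differences from the other accessions 45 did so or turned, mostly under treat (34) or against A101 alone (34). Leaving out genes with 3 or more libraries at the lowest value took the falls of cuticle genes from 68 to 32, of structural wall proteins from 58 to 33, of pectin genes from 49 to 32 of defence genes from 50 to 33, of auxin genes from 38 to 24, of AP2/ERF factors from 16 to 9, of sucrose genes from 8 to 5, of *NAC* factors from 4 to 1, of *WRKY* factors from 5 to 3, of vascular genes from 6 to 2 and of pollen genes from 5 to 2, with fewer genes tested. Quantile normalization took the rises of cytosolic ribosomal proteins from 8 to 25 and of defence genes from 18 to 29, and those of phenylpropanoid genes from 11 to 17 and of heat shock proteins from 5 to 8. Causes were not tested. Depth that was not used, compressed low counts and 2 green libraries limit what small differences can show.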
